A study of Mus musculus with 36 samples.

Results

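The mouse mitochondrial genome (mtDNA) carries 22 tRNA genes, and 8 of them lie on the strand that the annotation calls minus. These 8 genes, mt-Tq, mt-Ta, mt-Tn, mt-Tc, mt-Ty, mt-Ts1, mt-Te and mt-Tp, were taken as every mt-tRNA gene with chromosome MT and strand minus in all 6 deposited gene-count tables, which hold 51912 to 55487 genes each. The tables cover cauda spermatozoa, morulae, round spermatids, liver, epididymal white adipose tissue (eWAT) and gastrocnemius muscle, with 6 libraries each and 36 in all. All animals were C57BL/6N wildtype (C57BL/6 in the labels). Spermatozoa came from 8-week-old males fed for 2 weeks on a high-fat diet (HFD, 60% of kcal from fat) or a low-fat diet (LFD, 10% of kcal from fat), with 3 libraries a diet. Swim-up purified the cells. Morulae were made by in vitro fertilization with sperm of such males and oocytes of untreated wild-type females, cultured for 72 h and sequenced as 3 libraries per paternal diet. Round spermatids came from 8-week-old males on both diets. Liver, eWAT and gastrocnemius came from chow-fed sons of HFD fathers that were either glucose tolerant (HFDt) or intolerant (HFDi). The column names of these last 4 tables were treated as 1 group of 6 per tissue, so diet was compared only in spermatozoa and morulae. For spermatozoa and morulae, the tables with a test, no source used here says that libraries of a group came from separate animals, so p-values measure the spread between libraries, which may be technical.

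Both strands of mtDNA are copied into long precursor RNAs that span many genes. tRNAs sit between the protein and rRNA genes, and their excision by the mitochondrial RNase P at the 5′ end and by ELAC2 at the 3′ end frees the flanking RNAs. The minus-strand precursor contains a single protein gene, mt-Nd6, a subunit of respiratory complex I, and otherwise these tRNAs. Mature tRNAs are short, tightly folded and chemically modified, and ordinary RNA-seq kits capture them poorly.

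The 8 gene sequences are shown because each decodes a different amino acid and because their small size limits what a read can be assigned to. They are given 5′ to 3′ on the minus strand of GRCm38 (GENCODE M21 transcripts), with the anticodon in capitals, as the 3 middle bases of a 7-base loop closed by a stem of 5 pairs.
mt-Tq (glutamine), MT:3772-3842: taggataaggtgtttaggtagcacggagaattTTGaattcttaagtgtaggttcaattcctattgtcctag
mt-Ta (alanine), MT:5018-5086: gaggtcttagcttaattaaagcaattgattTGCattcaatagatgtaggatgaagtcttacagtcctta
mt-Tn (asparagine), MT:5089-5159: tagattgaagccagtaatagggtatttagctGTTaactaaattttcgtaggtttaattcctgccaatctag
mt-Tc (cysteine), MT:5192-5257: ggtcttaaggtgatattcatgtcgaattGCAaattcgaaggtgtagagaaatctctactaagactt
mt-Ty (tyrosine), MT:5260-5326: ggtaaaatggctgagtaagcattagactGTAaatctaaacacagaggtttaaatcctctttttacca
mt-Ts1 (serine, UCN codons), MT:6870-6938: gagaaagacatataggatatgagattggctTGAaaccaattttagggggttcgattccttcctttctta
mt-Te (glutamate), MT:14071-14139: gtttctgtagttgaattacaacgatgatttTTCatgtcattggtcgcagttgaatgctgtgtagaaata
mt-Tp (proline), MT:15356-15422: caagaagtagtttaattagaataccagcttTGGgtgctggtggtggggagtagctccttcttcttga

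The genes were 66 to 71 bases long. G made up 17.9% to 29.9% of their bases (median 23%), against 7.14% to 21.3% (median 15.7%) in the 14 plus-strand mt-tRNA genes. The order was the opposite for A, with a median of 29.3% against 37.3%. Of the 8, mt-Tp was the most G-rich, at 29.9%, and mt-Ty the least.

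The neighbours mt-Ta, mt-Tn, mt-Tc and mt-Ty stood head to tail within MT:5018-5326, with gaps of 2, 32 and 2 bases. The 32-base gap between mt-Tn and mt-Tc is the site known as the light-strand replication origin. mt-Tq overlapped the plus-strand mt-Ti by 3 bases, mt-Ts1 overlapped mt-Co1 by 3 bases, mt-Te abutted mt-Nd6, and mt-Tp lay at the edge of the control region. The stretch around a gene that held no other gene was 105 bases for mt-Tn, 100 for mt-Tc and open-ended for mt-Tp, and 69 to 74 bases for the other 5. Reads were 75 bases long in spermatozoa, morulae and round spermatids (in pairs in the last 2 tables) and 50 bases long in the sons' tissues, so a full 75-base read could lie clear of all neighbouring genes only at mt-Tn, mt-Tc and mt-Tp.

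Library totals were 2560219 to 4062321 counts in spermatozoa, 11471251 to 12153141 in morulae, 20138842 to 31056066 in round spermatids, 2036237 to 2552454 in liver, 1338149 to 4055537 in eWAT and 369772 to 2749920 in gastrocnemius. The 8 genes together held 83 to 179 counts in a sperm library, 502 to 2212 in a morula library, 146 to 221 in round spermatids and 55 to 464 in the sons' tissues. Where a gene had no count, up to 3 counts remain possible, or 0.738 to 1.17 CPM (counts scaled to a library total of 1e6) in spermatozoa, 0.247 to 0.262 in morulae and 8.11 in the smallest gastrocnemius library. Intervals and these limits cover counting error only. The markers of the labelled cell or tissue (Prm1, Prm2, Odf1, Smcp and Akap4 in spermatozoa, Nanog, Pou5f1, Cdx2, Tfap2c and Sox2 in morulae) were all present in their own table, as were the lists for round spermatids and the 3 tissues. Lists of other tissues were counted as well. In eWAT the muscle list reached 1175 CPM, the liver list 607 and the erythroid list 14074, beside 14878 to 28927 for its own. In gastrocnemius the fat list was at 206 to 1030 CPM, beside 38421 to 81439 for its own.

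Across tables the summed level of the 8 genes was highest in liver, at 107 to 171 CPM of the library total (median 141). Morulae followed with 41.4 to 182 (median 106), then gastrocnemius with 58.8 to 265 (median 85.5), eWAT with 25.1 to 83.0 (median 65.4), spermatozoa with 32.4 to 52.4 (median 36.1) and round spermatids with 5.81 to 8.53 (median 7.26). Only round spermatids lay clear of every other table, and among the other 5 each overlapped the next in this order. Kit, read length and RNA selection changed with the table (Nextera on spermatozoa, morulae and round spermatids, poly(A)-primed QuantSeq 3′ libraries on the tissues, and rRNA removal named in the study's methods for round spermatids alone), so tissue and kit cannot be told apart and no test was made between tables. In bulk RNA, fewer cells of a type and less RNA per cell cannot be told apart either.

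As CPM of mtDNA counts the order changed. Here the denominator is the sum of the mtDNA genes, which sets these tRNAs against all counted mitochondrial RNA, rRNA included. Liver (440 to 719, median 603) and morulae (182 to 765, median 411) remained first, followed by eWAT with a median of 376, round spermatids with 321 and gastrocnemius with 265. Spermatozoa were last, at 47.6 to 74.6 (median 58.4), below every library of the other 5 tables. mtDNA genes held 43.5% to 84.3% of sperm counts and 1.96% to 2.38% of round spermatid counts, the range within which the 2 denominators differ.

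**Figure D1:**
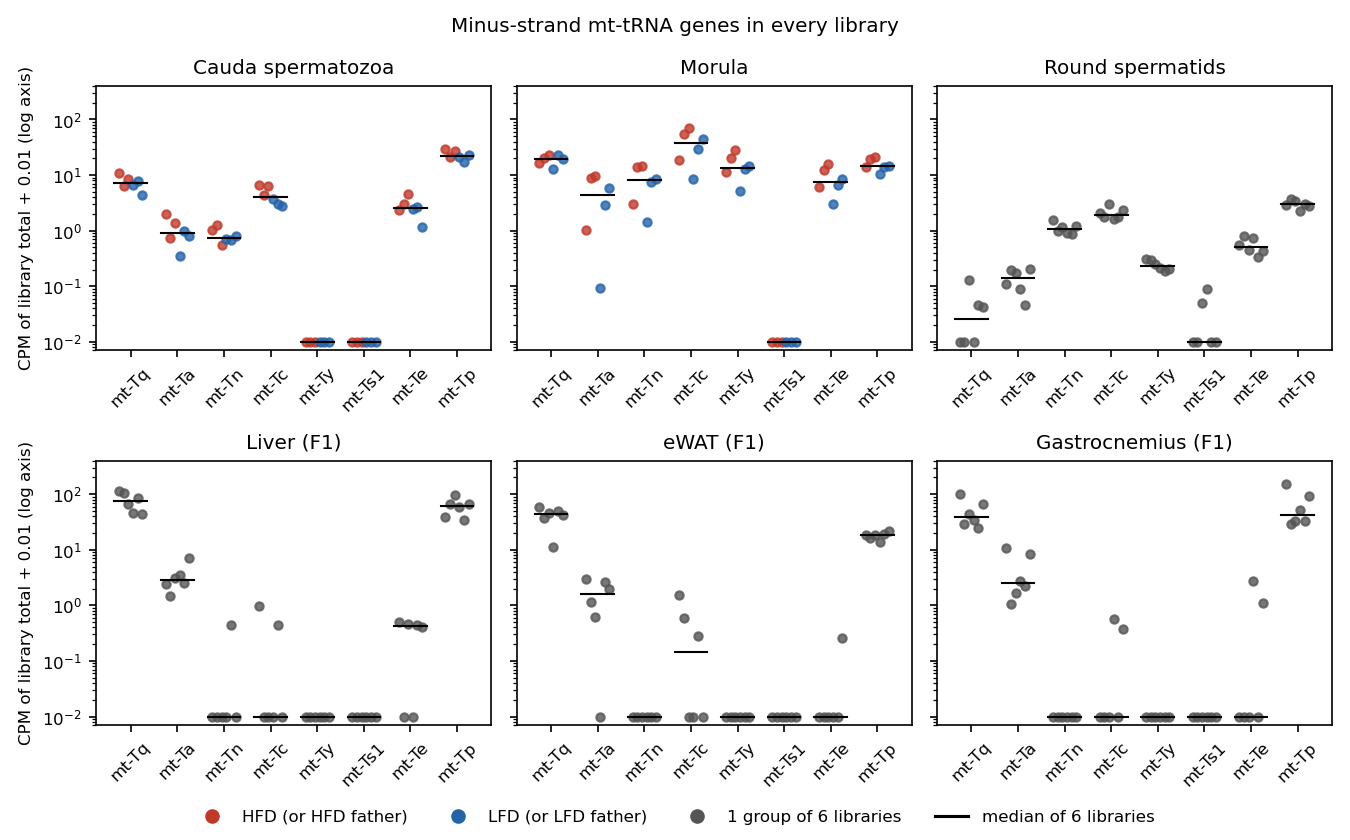
CPM of the library total, with 0.01 added, on a log axis for each of the 8 minus-strand mt-tRNA genes in 6 panels, where each point is a library, coloured by diet where the diet was compared, and the line is the median of 6. mt-Tp is counted in all panels, mt-Ts1 sits at the floor outside round spermatids, and mt-Tn and mt-Ty lie at or near the floor in the 3 tissues of the sons.

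Within a table the members differed in level. mt-Tp, the proline tRNA, was counted in all 36 libraries, at 17.4 to 29.4 CPM in spermatozoa (median 22), 10.6 to 21.2 in morulae (median 14.4), 2.23 to 3.63 in round spermatids (median 2.95), 34.5 to 94.8 in liver (median 62.1), 14 to 21.7 in eWAT (median 18.6) and 28.8 to 154 in gastrocnemius (median 42.1). Per kilobase it led in spermatozoa, round spermatids and gastrocnemius. In spermatozoa its median of 329 CPM per kb stood over 101 for mt-Tq, which came next, and the ranges of these genes did not overlap.

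mt-Tq, the glutamine tRNA, ranged from a leading member to nearly none between tables. It was at 44.3 to 116 CPM in liver (median 75.6), 11.1 to 59.8 in eWAT (median 43.9), 24.4 to 100.1 in gastrocnemius (median 39.4), 12.6 to 23.4 in morulae (median 19.6) and 4.30 to 11 in spermatozoa (median 7.19). In round spermatids it had 5 counts in all, in 3 of the 6 libraries, and a highest value of 0.121 CPM. Per kilobase it led in liver and eWAT, but its range overlapped that of mt-Tp in both, and mt-Tq was the higher of them in 3 of 6 liver and 5 of 6 eWAT libraries.

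The 4-gene cluster of mt-Ta, mt-Tn, mt-Tc and mt-Ty behaved the other way. It made up 36.5% to 66.8% of the 8 genes' counts in morulae (median 59.2%) and 42.0% to 55.2% in round spermatids (median 50.7%), 13.3% to 18.5% in spermatozoa, and at most 5.94% in any library of the sons' tissues. mt-Tc, the cysteine tRNA, was its most abundant member, at 8.41 to 69.4 CPM in morulae (median 37.2), 1.59 to 2.99 in round spermatids (median 1.92) and 2.73 to 6.68 in spermatozoa (median 4.10), with 9 counts over all 18 tissue libraries. mt-Tn, the asparagine tRNA, was at 1.40 to 14.5 CPM in morulae, 0.856 to 1.54 in round spermatids and 0.544 to 1.23 in spermatozoa, and had 1 count in the 18 tissue libraries. mt-Ty, the tyrosine tRNA, was at 5.19 to 28.1 CPM in morulae and 0.178 to 0.298 in round spermatids, with a count of 0 in all 6 sperm and all 18 tissue libraries. mt-Ta, the alanine tRNA, was the only one of the cluster counted in most tissue libraries, at up to 7.05 CPM in liver, 2.99 in eWAT and 10.8 in gastrocnemius.

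mt-Te, the glutamate tRNA beside mt-Nd6, was at 3.05 to 15.8 CPM in morulae (median 7.48), 1.17 to 4.62 in spermatozoa (median 2.51) and 0.321 to 0.802 in round spermatids (median 0.496), with 13 counts over all tissue libraries. mt-Ts1 had no count in 34 of the 36 libraries, and 2 and 1 counts in the 2 round spermatid libraries that had any. It lies inside a stretch of mtDNA, MT:6390-11042, from the first to the last base that aligned at 99% identity or more to annotated nuclear pseudogenes, although not every gene within it aligned. On chromosome 1 the pseudogenes Gm29216 and Gm28661, copies of mt-Co1 and mt-Co2, are 140 bases apart, as are mt-Co1 and mt-Co2 themselves, with mt-Ts1 and mt-Td between them. mt-Ts1 itself had no match among the annotated nuclear transcripts, and the sequence between both pseudogenes was not compared with it here. The neighbour mt-Co2, a cytochrome oxidase gene, also had 0 counts in all 6 sperm libraries, while Gm28661 had 22 to 65. In morulae mt-Co2 had 386 to 943 counts and in round spermatids 200 to 308, where mt-Ts1 had 0 and at most 2. Whether reads that match several places were counted is not given in the sources used here, and its part in the counts of mt-Ts1 was not tested, so a 0 there is not taken as its level. None of the 8 members had a near-identical match among the annotated nuclear transcripts.

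mt-Nd6, the other gene of the strand, did not follow the tRNAs over the 6 tables together. It was at 1102 to 2005 CPM in spermatozoa, 1256 to 2086 in morulae and 63.9 to 81.7 in round spermatids, but 2.25 to 23.5 in the sons' tissues, which had the other kit. Among the Nextera tables its medians were 1681 in morulae, 1567 in spermatozoa and 76.7 in round spermatids. The medians of the summed members had the same order there, at 106, 36.1 and 7.26. The 8 tRNAs together had 1.90 to 3.86 counts per 100 counts of mt-Nd6 in spermatozoa, 3.29 to 11.1 in morulae and 7.90 to 12.4 in round spermatids, against 250 to 7340 in the tissues. Over the 36 libraries, Pearson's r between log2(CPM + 0.5) of the summed members and of mt-Nd6 was -0.14. The most alike mtDNA genes by this measure were the plus-strand mt-Tm (r = 0.92), mt-Ti (0.90) and mt-Nd2 (0.90), all of which lie beside or near mt-Tq, and the most alike nuclear genes were Gm11407 (0.86), Acadm (0.85) and Pqbp1 (0.84). Gm11407 is a copy of mt-Nd5 with 92.3% identity over 1058 bases, so its counts and those of mt-Nd5 may share reads. These values are descriptions, and the libraries share kits within a table. Nextera does not mark the strand, so there reads of either strand over a gene cannot be told apart. The strand setting of the counting is not given for any table in the sources used here. Counts in the sons' tissues may therefore also hold reads of either strand.

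Set against all mt-tRNA counts, which removes the scaling of the library, the minus-strand share was 69.5% to 80.1% in round spermatids (median 77.1%). It was 38.0% to 50.2% in liver, 23.7% to 42.7% in eWAT, 19.2% to 36.2% in gastrocnemius, 26.7% to 43.3% in spermatozoa and 16.1% to 32.3% in morulae. Round spermatids thus stood above all 30 other libraries. There the 14 plus-strand mt-tRNAs had 1.77 to 3.35 CPM in sum, led by mt-Tl1 with a median of 1.17, and the lead of the minus strand came from mt-Tp, mt-Tc and mt-Tn. These 3 genes with a wide gene-free stretch held 81.5% to 90.9% of the 8 genes' counts in round spermatids, 64.6% to 80.7% in spermatozoa and 49.4% to 59.0% in morulae, all with 75-base reads, and 24.3% to 58.2% in the tissues with 50-base reads. The gene-free stretches of the 14 plus-strand mt-tRNAs were narrower than those of these 3, at 58 to 75 bases, with 75 only at mt-Tl1. Of the plus-strand genes, mt-Td, mt-Tk, mt-Tg and mt-Tr lie with mt-Ts1 in the stretch bounded by matches to nuclear pseudogenes. mt-Td and mt-Tk had 0 counts in round spermatids. The parts of the gene-free length and of that stretch in these levels and in the strand share were not tested.

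**Figure D2:**
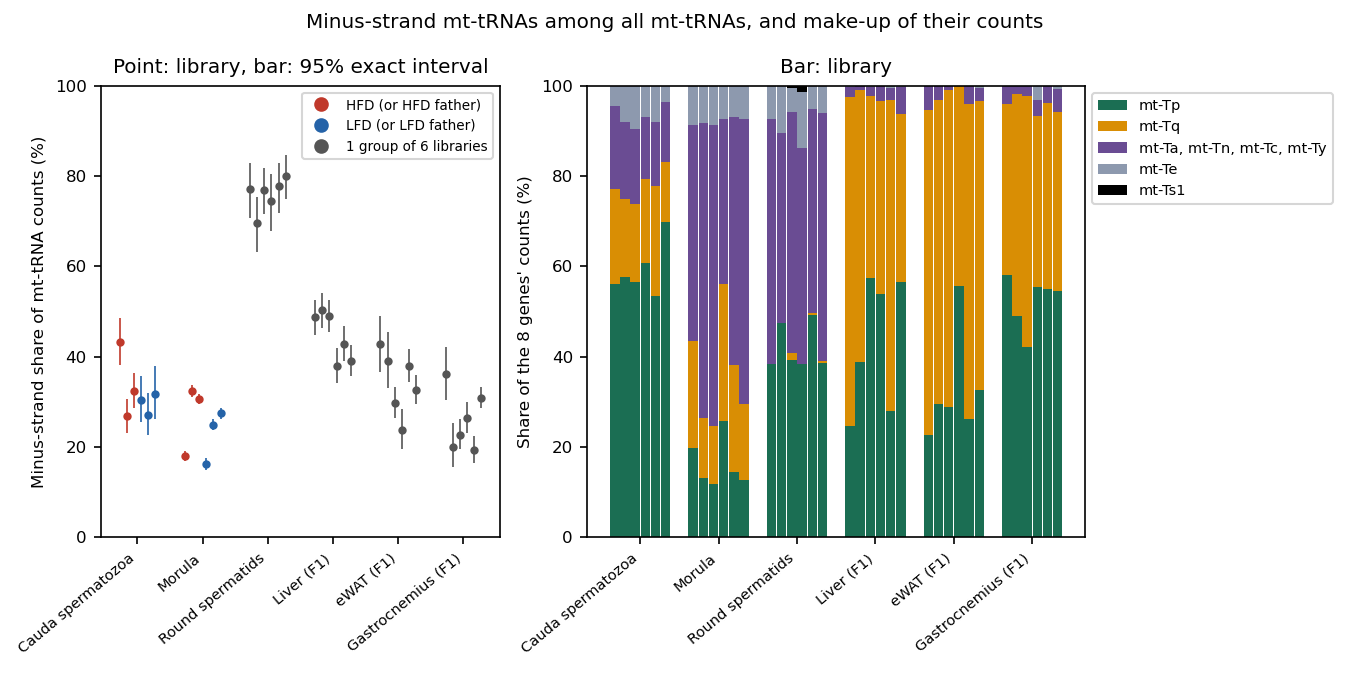
Left, the percent of all mt-tRNA counts on the 8 minus-strand genes for each library, with the 95% exact binomial (Clopper-Pearson) interval. Right, the percent of the 8 genes' counts held by each gene or by the cluster of 4, with 1 bar a library. Round spermatids lie at 69.5% to 80.1% on the left, and mt-Tq is almost absent from their bars on the right while it fills 37.3% or more of every tissue bar.

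Diet was compared first in spermatozoa, where the study asked whether an acute change of the father's diet alters the mitochondrial tRNAs that sperm carry. As CPM of the library total, the summed members were 52.4, 37.2 and 48.7 in the HFD libraries (named h1000, h3000 and h4000 in the table) and 35.01, 32.5 and 32.4 in the LFD libraries (l1000, l2000 and l4000). All 3 HFD libraries were above all 3 LFD libraries, with means of 46.1 ± 7.95 against 33.3 ± 1.49 (SD, n = 3 libraries each), a log2 ratio of 0.47. The exact two-sided permutation test gave p = 0.1, the smallest that 20 arrangements allow, so this design could not reach 0.05. As CPM of mtDNA counts the same libraries were at 62.2, 47.6 and 61.6 on HFD and 55.2, 50.2 and 74.6 on LFD. The groups overlapped, with means of 57.1 ± 8.26 and 60.003 ± 12.9 (n = 3 each), a log2 ratio of -0.07 and p = 0.8 in the exact permutation test. mtDNA genes held 78.1% to 84.3% of the counts on HFD and 43.5% to 64.7% on LFD. The rRNA gene mt-Rnr2 alone ranged from 279537 CPM of the total in l4000 to 524202 in h1000.

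The 5 sperm markers named above summed to 5562 to 10736 CPM of the total on HFD and 4252 to 9869 on LFD. The 6 epididymal epithelium markers (Crisp1, Adam7, Lcn5, Lcn8, Defb20 and Rnase10) were all present, with a summed level of 1629 to 2879 CPM of the total on HFD and 3014 to 24985 on LFD. With the counts of nuclear genes as the denominator the diets overlapped, at 7766 to 13146 on HFD and 8229 to 44201 on LFD. All 5 leukocyte markers summed to 50.01 to 86.9 CPM on HFD and 65.9 to 160 on LFD, and all 5 erythroid markers to 124 to 250.5 and 32.4 to 204. Over nuclear counts the leukocyte markers were at 238 to 397 and 179.98 to 283, and the erythroid markers, with no overlap, at 594 to 1591 and 57.4 to 557. The number of genes with a count did not overlap either, at 13007 to 16236 on HFD and 17284 to 19547 on LFD. Their part in the sperm results was not tested.

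Member by member, mt-Tp had 88, 87 and 101 counts on HFD and 62, 53 and 58 on LFD, in the library order above. In CPM of the total these were 29.4, 21.4 and 27.5 against 21.3, 17.4 and 22.7. The groups overlapped, since h3000 fell below l4000. mt-Tq had 33, 26 and 31 counts on HFD and 19, 24 and 11 on LFD, or 11, 6.40 and 8.43 CPM against 6.52, 7.87 and 4.30, again with overlap. mt-Tc had 20, 18 and 23 counts against 11, 9 and 7, or 6.68, 4.43 and 6.25 CPM against 3.78, 2.95 and 2.73. It was the only member whose libraries did not overlap as CPM of the total, where 0.555% of all 8643 genes tested were so higher on HFD. That share is low beside a median log2 fold change of all genes of -1.82 with this scaling. Of the 5 plus-strand mt-tRNAs tested, mt-Tf was likewise higher without overlap and mt-Tl2 lower. As CPM of mtDNA counts mt-Tc overlapped too.

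mt-Te had 7, 12 and 17 counts on HFD and 7, 8 and 3 on LFD. mt-Ta had 6, 3 and 5 against 1, 3 and 2, and mt-Tn 3, 5 and 2 against 2 in each LFD library. Pooled over libraries, the ratio of HFD to LFD in CPM of the total was 1.59 for mt-Te (95% counting interval 0.878 to 2.97), 1.85 for mt-Ta (0.669 to 5.88) and 1.32 for mt-Tn (0.436 to 4.43), so none of these differences was detectable at this depth. mt-Ty and mt-Ts1 had 0 counts in all 6 libraries.

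In edgeR's quasi-likelihood test, 3 of the 8 members (mt-Tp, mt-Tq and mt-Tc) passed the filter on low counts and 0 of them passed an adjusted p under 0.05, where 0% of 8643 genes did. With TMM scaling, which sets library sizes by a trimmed mean of gene ratios, the log2 fold changes of HFD over LFD were 2.13 ± 0.52 for mt-Tp (SE, edgeR adjusted p = 0.231), 2.15 ± 0.74 for mt-Tq (0.272) and 2.59 ± 0.83 for mt-Tc (0.249). All 3 were at an unadjusted p under 0.05 with no overlap of the groups, beside 8.38% and 8.21% of all genes in that direction, and 47.2% of all genes had a fold change above 0. DESeq2 called all 3, with adjusted p of 0.00355, 0.0406 and 0.0217, where it called 3.31% of the genes. Scaling moved all genes together, since their median was -0.07 on the log2 scale under TMM, -1.82 when libraries were scaled by their totals and -2.42 when scaled by mtDNA counts. With library totals the members' fold changes were 0.35 ± 0.65, 0.46 ± 0.87 and 0.86 ± 0.99 (SE). With mtDNA totals they were -0.21 ± 0.84, -0.021 ± 1.03 and 0.36 ± 1.14. The sign of mt-Tp and mt-Tq thus turned with the scaling, but each of these values was smaller than its SE, so they show no direction.

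**Figure D3:**
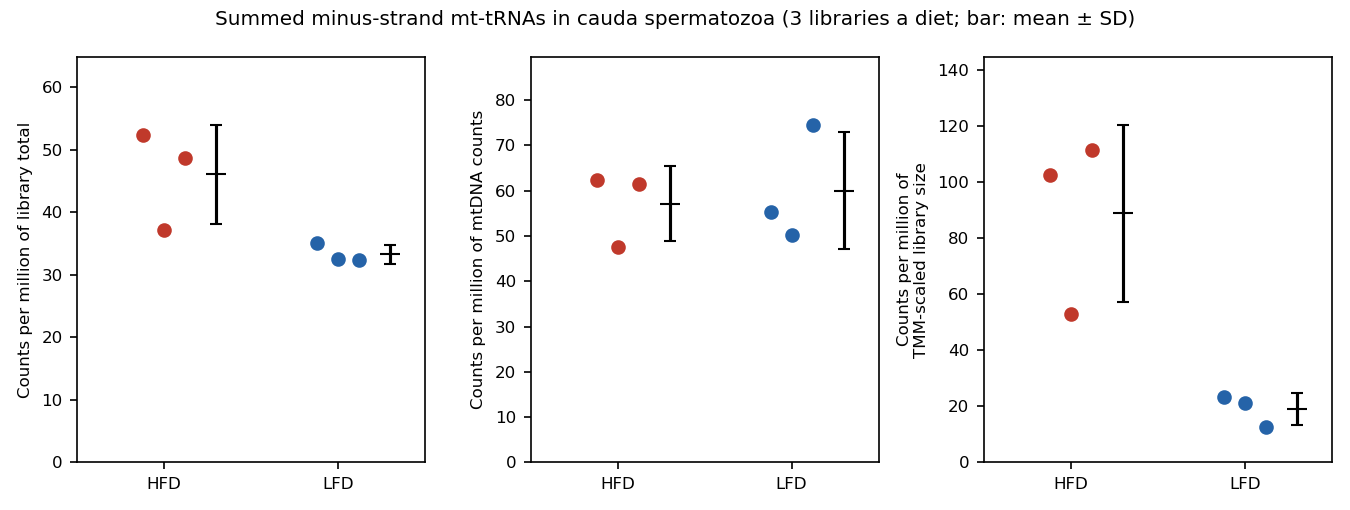
Summed counts of the 8 genes in the 3 HFD and 3 LFD sperm libraries as CPM of the library total (left), of mtDNA counts (middle) and of the TMM-scaled library size (right), with the mean ± SD beside the points. The diets are apart by a log2 ratio of 0.47 on the left, overlap in the middle and are apart by 2.22 on the right.

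None of the plus-strand mt-tRNAs passed the test in spermatozoa with TMM scaling. Of the 14 plus-strand mt-tRNAs 5 were tested, and all 5 fold changes were above 0, with a median of 1.64. mt-Tf, the phenylalanine tRNA, was at 2.26 ± 0.54 (edgeR adjusted p = 0.231), and mt-Tl2, a leucine tRNA, at 0.64 ± 0.83 (0.798). mt-Nd6 was at 2.04 ± 0.55 (0.231). Relative to the plus-strand mt-tRNAs of the same library, the minus-strand share was 43.3%, 26.7% and 32.4% on HFD and 30.4%, 27% and 31.8% on LFD. The diets overlapped, the means were 34.1% ± 8.40 and 29.8% ± 2.45 (n = 3 each), and the exact permutation test gave p = 0.5. A test of 20 arrangements, with a smallest p of 0.1, cannot decide whether the strands differ. Without h1000, the library with 43.3%, the difference of the mean shares was -0.22 percentage points in place of 4.35. The median fold changes of the 3 tested members and the 5 tested plus-strand mt-tRNAs were 2.15 and 1.64 with TMM. They were 0.46 and -0.13 with library totals, and -0.021 and -0.70 with mtDNA totals.

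Nuclear genes that make or use these tRNAs were compared in the same fit, and 0 passed the test in spermatozoa. Of 10 genes of mtDNA transcription 2 were tested, Tfam, which packages mtDNA and helps start transcription, at 1.10 ± 0.69 (edgeR adjusted p = 0.548), and Mterf3, a regulator of it, at -1.11 ± 0.72 (0.563). Of 5 genes of mt-tRNA end processing in the table, 4 were tested with a median of -0.89, from Elac2, the 3′-end nuclease, at -1.68 ± 1.07 (0.549) to Trnt1, which adds the CCA end, at 0.25 ± 0.84 (0.933). Of 10 genes that charge the 8 tRNAs, 4 were tested with a median of -0.84, from Ears2, the glutamate enzyme, at -0.97 ± 1.05 (0.747) to Gatc at 0.04 ± 0.78 (0.987). Of 6 genes of mitochondrial RNA turnover, 4 were tested with a median of -0.18, from Lrpprc at -0.40 ± 0.65 (0.849) to Pnpt1 at 0.09 ± 1.07 (0.983). With library totals 37.8% of all genes were called, 1 of those 3266 being higher on HFD, and 6 of these 14 genes were called, all lower.

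In morulae the same paternal diets were compared one generation later. The summed members were 70.9, 149 and 182 CPM of the total in the HFD libraries (MH5, MH6 and MH7) and 41.4, 96.2 and 116 in the LFD libraries (ML1, ML2 and ML3). MH5 fell below ML2 and ML3, so the groups overlapped, with means of 134 ± 57.1 and 84.5 ± 38.6 (SD, n = 3 libraries each), a log2 ratio of 0.67 and p = 0.3 in the exact two-sided permutation test. As CPM of mtDNA counts the values were 263, 578 and 765 against 182, 379 and 443, a log2 ratio of 0.68 with p = 0.3 in the exact test. mtDNA genes held 22.8% to 26.9% of the counts in all 6 libraries, and the denominators gave like values. For 3 of the 6 morula samples a description field in the labels names the other diet, and the title and treatment field were followed.

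Of the 8 members 7 were tested, and 0 passed an adjusted p under 0.05 in edgeR, where 0% of 13447 genes did. DESeq2 called 0 members as well, and 0.0669% of all genes. All 7 fold changes were above 0, beside 52.2% of all genes. At an unadjusted p under 0.05, mt-Ty was at a log2 fold change of 0.84 ± 0.35 (edgeR adjusted p = 0.729) and mt-Te at 0.88 ± 0.38 (0.743), where 3.55% of all genes were higher at that level. mt-Ta was at 1.10 ± 0.82, mt-Tn at 0.81 ± 0.56, mt-Tc at 0.73 ± 0.45, mt-Tp at 0.45 ± 0.21 and mt-Tq at 0.11 ± 0.22, with edgeR adjusted p of 0.769 to 0.964. The groups overlapped for all 7, while 5.94% of all genes were without overlap and higher with HFD fathers.

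The order of the libraries was nearly the same for each member. mt-Tc was at 18.7, 54.3 and 69.4 CPM in MH5, MH6 and MH7 and at 8.41, 29.99 and 44.5 in ML1, ML2 and ML3. mt-Te was at 6.11, 12.2 and 15.8 CPM against 3.05, 6.54 and 8.43. mt-Ty had 134, 235 and 341 counts against 63, 146 and 172. For all 3 genes MH7 was highest and ML1 lowest. mt-Tn had 35, 164 and 176 counts against 17, 85 and 102, and mt-Ta 12, 101 and 118 against 1, 33 and 68. MH5 lay near ML1 for these last genes and far from the other HFD libraries. mt-Tp had 165, 226 and 258 counts against 129, 160 and 175, and mt-Tq 197, 231 and 284 against 153, 260 and 230.

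mt-Tq and mt-Tp thus varied less than the other counted members, with a coefficient of variation over the 6 libraries of 20.9% and 25.1% in CPM. It was 51.5% for mt-Ty, 53.0% for mt-Te, 60.8% for mt-Tc, 66.8% for mt-Tn and 85.5% for mt-Ta. The plus-strand mt-tRNAs also covered both ends, from 12.7% for mt-Tf to 73.9% for mt-Tl2 and 98.5% for mt-Tw, the tryptophan tRNA next to mt-Ta. The mitochondrial rRNA genes mt-Rnr1 and mt-Rnr2 were at 6.73% and 6.55%. The number of genes with a count was 22794 in MH6 and 22356 in MH7, the libraries with the highest sums, and 20577 in MH5 and 21024 in ML1, those with the lowest, with 21697 and 21583 in ML2 and ML3, and its part in the result was not tested.

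**Figure D4:**
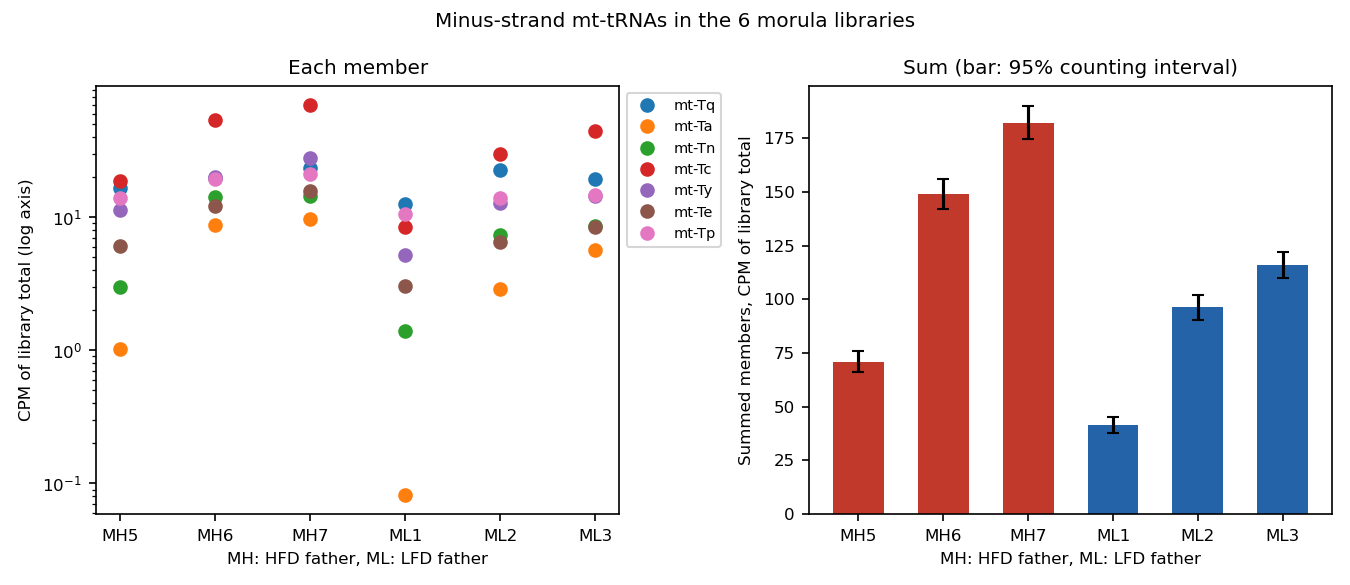
Left, CPM of the library total on a log axis for the 7 members counted in morulae, by library. Right, their sum with all 8 genes, where the bar shows the 95% exact Poisson interval of the count. MH7 has the highest sum at 182 CPM and ML1 the lowest at 41.4, while mt-Tq and mt-Tp stay within 10.6 to 23.4 CPM in all 6 libraries.

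The minus-strand share of mt-tRNA counts in morulae was 18%, 32.3% and 30.6% with HFD fathers and 16.1%, 24.9% and 27.4% with LFD fathers. The groups overlapped, with means of 27% ± 7.85 and 22.8% ± 5.93 (n = 3 each) and p = 0.5 in the exact permutation test. The tested plus-strand mt-tRNAs, 11 of 14, all had fold changes above 0 with a median of 0.54, beside 0.81 for the members and 0.01 for all genes. They ranged from mt-Tf at 0.08 ± 0.20 (edgeR adjusted p = 0.971) to mt-Tw at 1.80 ± 0.93 (0.792), and mt-Nd6 was at 0.16 ± 0.13 (0.876). In the nuclear lists 0 genes passed the test. The medians were 0.03 for 9 tested genes of mtDNA transcription, -0.05 for 5 of end processing, 0.15 for 10 that charge these tRNAs and 0.22 for 6 of RNA turnover. The ends of the transcription list were Mterf4 at -0.10 ± 0.17 and Polrmt, the mitochondrial RNA polymerase, at 0.20 ± 0.15. In end processing Hsd17b10, a subunit of RNase P, was at -0.31 ± 0.29 and Elac2 at 0.01 ± 0.15. Among the charging enzymes Pars2, for proline, was at -0.45 ± 0.47 and Nars2, for asparagine, at 0.74 ± 0.30. In RNA turnover Grsf1 was at -0.06 ± 0.13 and Pnpt1, a mitochondrial exonuclease, at 0.51 ± 0.22. Adjusted p of these 8 genes was 0.727 to 0.993 in edgeR.

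The log2 ratio of the summed members in CPM of the total, 0.47 in spermatozoa and 0.67 in morulae, differed by -0.20 between the experiments, with p = 0.775 when the diets were permuted within both (exact, two-sided, 400 arrangements). This difference depended on the denominator, at -0.75 with mtDNA counts and 1.60 with TMM-scaled sizes.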

How the data were processed

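For each of the 6 tables the authors deposited raw counts per gene, made with BBDuk for trimming, STAR for mapping to GRCm38 and featureCounts for counting, inside the software Artificial Intelligence RNA-Seq. They hold whole numbers and were not changed. RNA of spermatozoa, morulae and round spermatids was taken on RNeasy columns per the labels (for spermatozoa the study's methods name RNeasy or miRNeasy columns, for round spermatids libraries without rRNA) and made into Nextera libraries of 75-base reads, and that of liver, eWAT and gastrocnemius into QuantSeq 3′ FWD libraries of 50-base reads. Versions, the strand setting and the treatment of reads with several matches are not given in the sources used here. RNeasy columns keep mainly longer RNA, miRNeasy columns short RNA as well, and featureCounts by default leaves out reads that overlap several genes, which bears on genes as short as tRNAs.

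Libraries of spermatozoa and morulae were grouped by the diet letter in their column name, whose numbers are not those of the sample titles. All 36 per-sample columns were used. Symbols came from a table of Ensembl identifiers, which held 54723 of the 54838 in the sperm table and 55141 of the 55487 for morulae. Levels were computed in Python 3.11.15 (pandas 2.3.3, numpy 2.4.6) as CPM of the library total and of mtDNA counts, with exact 95% intervals (scipy 1.17.1). No pair of libraries of a group agreed within sampling noise, with a chi-square per degree of freedom of at least 3.50 in every comparison. Diets were tested separately in the sperm and morula tables by edgeR's (4.0.16, in R 4.3.3) quasi-likelihood test with TMM sizes, after filterByExpr at min.count 10, and p-values were adjusted by Benjamini-Hochberg over all genes against 0.05. The authors' own comparison used NOISeq, which was not used here. Alternatives were DESeq2 1.42.0, limma-voom (limma 3.58.1), other scalings, no filter, a block by number, and each library left out in turn. The R package data.table (version 1.17.8) read the files. Summed values and shares were compared by exact permutation tests over 20 arrangements. The fits were tested on simulated counts.

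Gene sequences and positions came from GENCODE M21, and nuclear copies were searched with BLAST 2.17.0 among its transcripts, where 99% identity counted as near-identical. All 8 members were named in every comparison, with mt-Nd6, the largest and smallest fold change of each list, and the 3 mtDNA and 3 nuclear genes with the highest r among genes with a mean of at least 1 CPM in at least 3 tables. The genes mt-Tl1, mt-Rnr1 and mt-Rnr2, and those named for their place beside a member or in one stretch with mt-Ts1, were added after their values were seen. The members and lists were chosen with earlier results of these data known. Figures were drawn with matplotlib 3.10.9.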

Additional observations from a re-analysis of the deposited data

Results flagged for a closer look

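Among the tables with a single group of 6 libraries, 36 sets of values were checked for a library far from the others by Dixon's ratio, and 5 stood out, where chance flags about 1 in 20 sets of continuous values. That rate does not hold for sets of a few counts, and 3 of the 5 rest on 1 to 3 counts. In round spermatids, mt-Tq was at 0.121 CPM in 1 library, the next being 0.0357, on 3 counts and 1 count. In liver, mt-Ta was at 7.05 CPM in 1 library, the next being 3.51, and mt-Tn at 0.426 CPM in 1 library and at 0 in the other 5, on 1 count. In eWAT, mt-Te was at 0.247 CPM in 1 library and at 0 in the other 5, again on 1 count. Also in eWAT, the summed members were at 148 CPM of mtDNA counts in the library with 88 member counts, the lowest, against 360.1 to 478 in the others. That library had the lowest mt-Tq of its table, 11.1 CPM, while its mt-Tp of 14 CPM was also the lowest.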

How the results depend on the processing

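In spermatozoa 0 members passed the test in edgeR with each scaling, without the filter, in limma-voom and without each library in turn. DESeq2 called 3, and 3 were at an unadjusted edgeR p under 0.05. With the replicate block by column number, which pairs only h1000 with l1000 and h4000 with l4000, the count was 0, with log2 fold changes of 2.88 for mt-Tq, 3.02 for mt-Tc and 2.42 for mt-Tp. The deviations of these pairs correlated at 0.10 and -0.14, so the numbers were not taken as pairs. With totals of mtDNA counts mt-Tq was at -0.021 and mt-Tp at -0.21. In morulae 0 members passed except without the filter, where edgeR called 1, mt-Tc, with adjusted p = 0.00415 (0.844 with the filter), and 2 were at an unadjusted p under 0.05. Without ML1 mt-Tq was at -0.11, and without 1 library in turn it ranged from -0.11 to 0.30. Over all genes edgeR called 0 in spermatozoa (1124 at an unadjusted p under 0.05), 2 with the block, 41 without the filter, 3266 with library totals and 4980 with mtDNA totals, limma-voom 0 and DESeq2 286. In morulae it called 0 (858 unadjusted), 63 without the filter and 2 without MH5, limma-voom 0 and DESeq2 9. No paired analysis was possible because the morula diets share no column number.

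For summed members in sperm as CPM of mtDNA counts, where the main log2 ratio was -0.07, the ratio of medians gave 0.16 and leaving out mt-Tp 0.14, and leave-one-out values ran from -0.18 (without l2000) to 0.12 (without l4000). As CPM of the total the ratio stayed above 0, at 0.37 to 0.60 in leave-one-out, 1.59 with nuclear counts as the denominator and 2.22 with TMM-scaled sizes. The minus-strand share in sperm differed between the diets by -0.22 (without h1000) to 8.04 percentage points (without h3000) in leave-one-out. In morulae the log2 ratio of the sum was 0.34 (without ML1) to 0.97 (without MH5) in CPM of the total, and the share differed by 0.84 (without ML1) to 8.69 points (without MH5). The difference of the diet effect between sperm and morula was 1.60 with TMM-scaled sizes (exact permutation p = 0.185) and -0.75 with mtDNA counts as the denominator. In leave-one-out it was -0.50 (without MH5) to 0.13 (without ML1). With mtDNA counts as the denominator the rank among the 6 tables was 6 for spermatozoa, 4 for round spermatids, 3 for eWAT and 5 for gastrocnemius, in place of 5, 6, 4 and 3. In all, 221 recomputed values stayed the same. Effects among them kept their direction and, where compared, their side of the threshold, and ranks and numbers of called members kept their value. Among the 221 are sums of the members without mt-Ts1. These could not change, since mt-Ts1 had 0 counts in all sperm and morula libraries. Another 11 values turned direction, 4 newly passed the threshold, and 8, all ranks or numbers of called members, changed. The cause of the changes was not tested. Depth limits mt-Ta, mt-Tn and mt-Te in sperm, at 1 to 17 counts a library.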
